A study of Homo sapiens with 6 samples.

Results

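The miR-15/16 family is a group of small regulatory RNAs that share their seed, the stretch of bases at the 5′ end through which a microRNA recognises its target messenger RNAs. Members were taken by name: hsa-miR-15a-5p, hsa-miR-15b-5p, hsa-miR-16-5p, hsa-miR-195-5p, hsa-miR-424-5p, hsa-miR-497-5p and hsa-miR-503-5p, mostly written here without the species prefix. All 7 were on the array, among 2019 probes for human microRNAs. The first 6 of these names carry the full shared seed, and miR-503-5p, which is transcribed next to miR-424, differs from it in the last seed base. The 6 one-colour microRNA arrays carried RNA of HuH7, a cell line established from a human hepatocellular carcinoma. HuH7 cells with 1 µg/ml cisplatin for 24 h gave 3 arrays, and HuH7 cells without cisplatin, kept for the same 24 h, gave the other 3. Cisplatin is a platinum drug that crosslinks DNA. All samples came from this 1 line, at 1 dose and 1 time, and no label states that replicates came from different cultures. The p-values therefore refer to the spread among these 6 samples alone, and that spread may be technical.

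MicroRNAs of this family are known for holding back cell division and survival: their described targets include cyclins of the G1 phase and the survival factor BCL2. The miR-15a and miR-16 genes are best known from chronic lymphocytic leukaemia, in which their region is often deleted. In other human cell lines, DNA damage has been reported to raise the processing of the miR-16 precursor through p53. In bulk RNA such as this, fewer cells of a type and less RNA per cell cannot be told apart.

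The mature sequences show what holds the family together and where its members part. Below they are written 5′ to 3′ from RefSeq (GRCh38.p14), where all 7 matched by name, with the seed, bases 2 to 8, in capitals. The last pair, miR-103a-3p and miR-107, stands beside them because these RNAs carry the same letters shifted by 1 base.
miR-15a-5p: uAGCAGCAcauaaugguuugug
miR-15b-5p: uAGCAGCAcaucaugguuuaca
miR-16-5p: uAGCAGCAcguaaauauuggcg
miR-195-5p: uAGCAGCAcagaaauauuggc
miR-424-5p: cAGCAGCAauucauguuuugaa
miR-497-5p: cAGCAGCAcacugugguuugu
miR-503-5p: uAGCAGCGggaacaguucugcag
miR-103a-3p: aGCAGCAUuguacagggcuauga
miR-107: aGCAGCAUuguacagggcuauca

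Of the 7 members 6 have the seed AGCAGCA, and miR-503-5p has AGCAGCG. Among 2370 human mature microRNAs in that RefSeq table, 7 have the full seed, the 6 listed and miR-6838-5p, which was not on this array. Bases 2 to 7 alone are matched by miR-503-5p and miR-646. Outside the seed the members diverge. After the seed, miR-16-5p and miR-195-5p had the same base at 11 of 13 positions, compared without gaps. miR-15a-5p and miR-15b-5p did so at 10 of 14, and miR-424-5p and miR-503-5p at 6 of 14. Over the whole sequences, seed included, these counts were 19 of 21 (90.5%), 18 of 22 (81.8%) and 12 of 22 (54.5%). Probe sequences were not used here, and how far a probe binds its near relatives was not tested.

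The family is encoded in 4 pairs of neighbouring hairpins. MIR15A (chr13:50049119-50049201, minus strand) and MIR16-1 (chr13:50048973-50049061, minus strand) lie 57 bases apart within the span of DLEU2, a long non-coding RNA gene. MIR15B (chr3:160404588-160404685, plus strand) and MIR16-2 (chr3:160404745-160404825, plus strand) lie 59 bases apart within SMC4, the gene of a condensin subunit, and within the readthrough gene TRIM59-IFT80. MIR497 (chr17:7017911-7018022) and MIR195 (chr17:7017615-7017701) lie 209 bases apart on the minus strand within their host gene MIR497HG. MIR424 (chrX:134546614-134546711) and MIR503 (chrX:134546328-134546398) lie 215 bases apart on the minus strand. MIR503 is within MIR503HG, and MIR424 is within no gene span of that annotation. MIR16-1 and MIR16-2 give the same mature miR-16-5p, so its probe reads the sum of both loci.

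On each array a probe was called above the limit when its foreground signal exceeded the blank-spot mean of that array by over 2 SD of its 925 blank spots, a limit of 209 to 247 intensity units on cisplatin arrays and 220 to 240 on control arrays. By this measure 329 to 713 human probes were above the limit on cisplatin arrays, the fewest on replicate 2, and 500 to 738 on control arrays. Cisplatin arrays lay at slide positions 4, 2 and 4 and control arrays at positions 3, 1 and 3, so that slide position and treatment cannot be told apart. The labelled cell type was checked with 4 hepatocyte microRNAs, including miR-122-5p, and all 4 were above the limit on all 6 arrays. After quantile normalization 3 of these 4 had a negative log2 difference, cisplatin minus control. It was -0.21 ± 0.0497 for miR-122-5p and -0.37 ± 0.0723 for miR-122-3p (SE; limma adjusted p = 0.129 for each), without overlap between groups. The quantile step gave miR-122-5p the same level (12.24) on all 3 control arrays, and this tie narrows its SE. The share of all tested probes lower without overlap was not counted. The log2 difference was -0.058 ± 0.0686 for miR-192-5p and 0.021 ± 0.0899 for miR-194-5p (SE), both with overlap. The median log2 difference of the 4 was -0.13, and 0 were called. In raw foreground the groups overlapped for all 4. miR-122-5p gave 4337 to 4901 on cisplatin and 4739 to 5169 on control arrays, and miR-122-3p 280 to 326 and 303 to 372. miR-192-5p gave 1517 to 2150 and 1322 to 1634, and miR-194-5p 1634 to 2488 and 1343 to 1955. For miR-192-5p and miR-194-5p, each cisplatin array was above the control array of the same replicate number. For both arms of miR-122 each was below it. Of 20 microRNAs typical of stromal, endothelial, muscle and blood cells, 3 to 9 were above the limit on cisplatin arrays and 8 to 10 on control arrays. The summed foreground signals of the 20 were 4252 to 4787 and 4397 to 4831. Of these 20, 4 were tested and 0 called by limma, and the part of both marker lists in the results below was not tested.

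After cisplatin, the normalized signal of miR-424-5p was 1.33-fold that of control samples, that of miR-15b-5p 1.16-fold and that of miR-16-5p 1.10-fold (n = 3 each). For miR-15a-5p and miR-503-5p it was 1.04-fold, and miR-195-5p and miR-497-5p lay at the blank-spot limit. None of the 5 tested members passed the threshold in limma, and their errors are given below. The 5 members miR-16-5p, miR-15b-5p, miR-15a-5p, miR-424-5p and miR-503-5p were above the limit on all 6 arrays and were tested. These are the members that passed the filter and not the whole family. The summed foreground signal of the 7 probes was 4215, 5674 and 5913 on cisplatin arrays and 3514, 4694 and 4449 on control arrays. The brightest cisplatin arrays were replicates 2 and 3, the dimmest control array was replicate 1, and the groups overlapped. Signals of different probes depend on each probe's own binding, so no member's level is set against that of another.

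**Figure D1:**
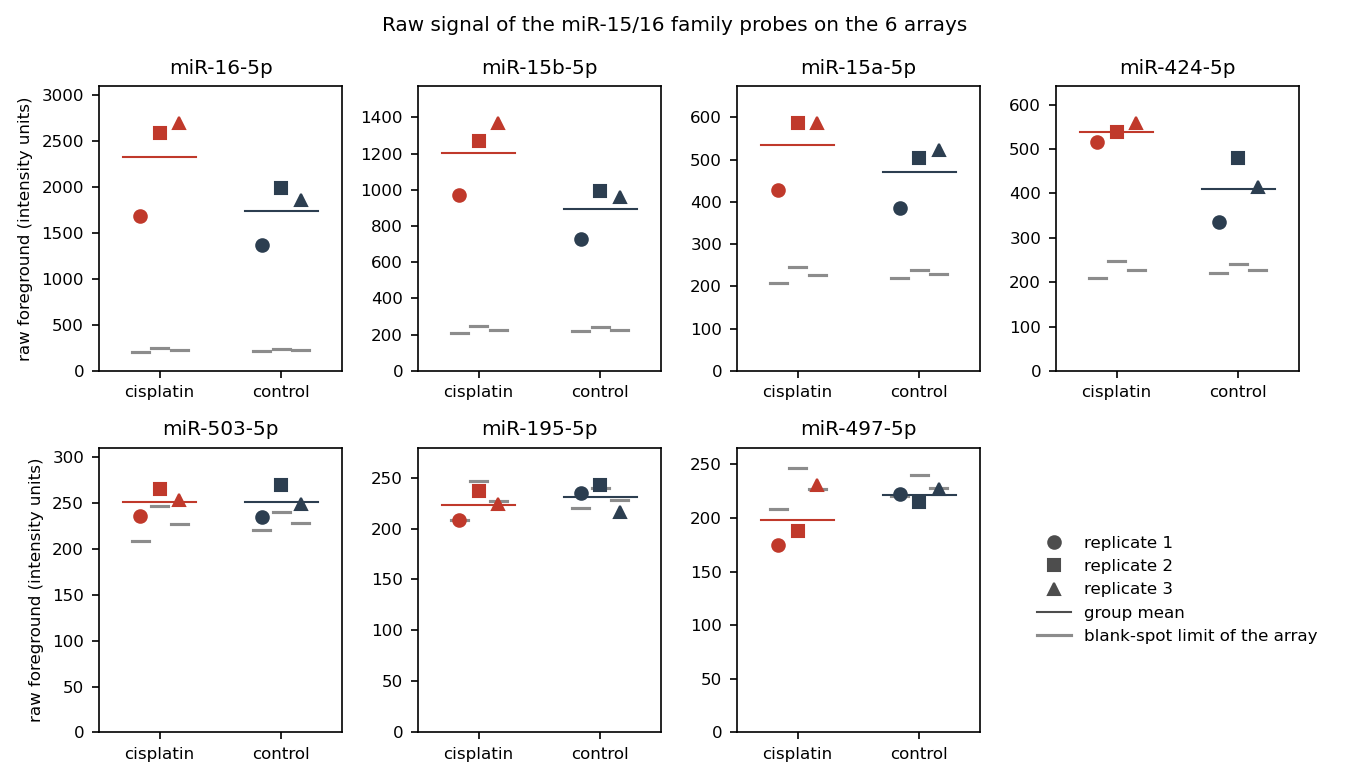
Raw foreground signal (intensity units, linear axis from 0) of the 7 family probes, cisplatin left and control right, with 1 point per array, its shape giving the replicate, a line at the group mean, and a short grey line at the blank-spot limit of each array. In miR-424-5p the lowest cisplatin array (515) lies above the highest control array (479), in the other 6 panels the groups overlap, and miR-195-5p and miR-497-5p sit at the limit.

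hsa-miR-424-5p, from the X-linked pair, is known in blood cell biology as a microRNA that promotes monocyte differentiation. It had the largest normalized difference of the 5 tested members. Its foreground signal was 515, 539 and 558 on the cisplatin arrays and 336, 479 and 414 on the control arrays. All 3 cisplatin arrays were above all 3 control arrays, and the cisplatin arrays were the more uniform, with 537 ± 21.5 against 410 ± 71.6 (SD, n = 3 each). After quantile normalization, which gives all arrays the same distribution, its log2 level was 8.80, 8.56 and 8.69 in cisplatin and 8.03, 8.44 and 8.32 in control samples. Here too the groups did not overlap. The log2 difference was 0.42 ± 0.126 (SE; 95% interval 0.10 to 0.73), which is 1.33-fold (1.07 to 1.66). In limma over the 324 tested probes the unadjusted p was 0.0184 and the Benjamini-Hochberg adjusted p 0.184, so miR-424-5p did not pass the threshold of 0.05. With the replicate number as a block, the unadjusted p was 0.0611 and the limma adjusted p 0.306. The 3 same-numbered pairs gave log2 differences of 0.76, 0.11 and 0.38, all positive and unequal in size.

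hsa-miR-503-5p, from the hairpin next to MIR424, did not show such a difference. Its foreground signal was 236, 265 and 253 on the cisplatin arrays, against 235, 270 and 249 on the control arrays. The arrays of both groups covered the same narrow range, close above the limit, and the means were 251 ± 14.6 and 251 ± 17.6 (SD, n = 3 each). The normalized log2 difference was 0.061 ± 0.0780 (SE; 95% interval -0.13 to 0.26; limma adjusted p = 0.794). Differences above 1.19-fold lay outside this interval, but so close to the limit a fold is understated, because its signal was little above that of blank spots. Its sign was negative under 3 of the 28 alternative settings.

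The ratio of the neighbours within each array restates these values and is given as a description. The log2 ratio of miR-424-5p to miR-503-5p, normalized, averaged 1.59 ± 0.080 in cisplatin and 1.23 ± 0.156 in control samples (SD, n = 3 each). Every cisplatin array had a higher ratio than every control array, with a difference of 0.35. An exact permutation test gave p = 0.1, the smallest it can give with 3 arrays a group. The Benjamini-Hochberg adjusted p over the 3 ratios of neighbours was 0.3. Without normalization between arrays the ratio was 1.67 ± 0.0923 against 1.14 ± 0.216, again with no overlap (exact permutation p = 0.1, adjusted p = 0.15). How far the nearness of miR-503-5p to the limit widens this difference was not tested.

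hsa-miR-15b-5p, from the chromosome 3 pair, had a foreground signal of 972, 1272 and 1368 on the cisplatin arrays and 727, 993 and 961 on the control arrays. Replicate 1 was the lowest in both groups and the lowest cisplatin array lay within the control range, so the groups overlapped. Within each number, the cisplatin array was 1.34, 1.28 and 1.42 times the control array. These ratios were similar across the 3 pairs, while the arrays of 1 group differed more. The normalized log2 level was 9.93 ± 0.198 in cisplatin and 9.72 ± 0.172 in control samples (SD, n = 3 each), a difference of 0.22 ± 0.135 (SE; 95% interval -0.12 to 0.55; 1.16-fold; limma adjusted p = 0.547). With the replicate number as a block, the unadjusted p was 0.00957 and the limma adjusted p 0.184. The quantile step gave replicates 2 and 3 of each group identical levels, so pairs 2 and 3 have the same difference, 0.23. These ties narrow the spread that the blocked fit uses, and how far they lower its p was not tested.

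hsa-miR-16-5p, the most studied member, read from both loci at once, gave 1681, 2587 and 2693 on the cisplatin arrays and 1373, 1991 and 1860 on the control arrays. Replicate 1 was again the lowest in both groups, and the cisplatin array of that number lay within the control range. Cisplatin arrays were 1.22, 1.30 and 1.45 times their same-numbered controls in raw signal. The normalized log2 level was 10.94 ± 0.161 in cisplatin and 10.81 ± 0.0888 in control samples (SD, n = 3 each), with a difference of 0.13 ± 0.0992 (SE; 95% interval -0.11 to 0.38; 1.10-fold; limma adjusted p = 0.619). Pair 3 gave 0.32 of normalized log2 difference and pairs 1 and 2 gave 0.030 and 0.048, so the size rested mostly on 1 pair.

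hsa-miR-15a-5p, the partner of miR-16 on chromosome 13, gave 428, 586 and 586 on the cisplatin arrays and 386, 503 and 522 on the control arrays. The groups overlapped, with replicate 1 lowest in each. The normalized log2 difference was 0.061 ± 0.118 (SE; 95% interval -0.23 to 0.36; 1.04-fold; limma adjusted p = 0.867). Its sign turned when 1 array was left out, to -0.029 without control replicate 1 and -0.0016 without cisplatin replicate 3. Its same-numbered pairs differed by 0.064, 0.083 and 0.036 on the log2 scale, a narrow spread.

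For the other pairs of neighbours the groups overlapped in normalized ratio. For miR-15b-5p over miR-16-5p, the normalized log2 ratio was -1.01 ± 0.0854 in cisplatin and -1.09 ± 0.134 in control samples (SD, n = 3 each). For miR-15a-5p over miR-16-5p it was -2.31 ± 0.0331 and -2.24 ± 0.159 (SD, n = 3 each). Without normalization between arrays, the ratio of miR-15a-5p to miR-16-5p was -2.35 ± 0.0884 in cisplatin and -2.16 ± 0.0810 in control samples (SD, n = 3 each). In those values the groups did not overlap (exact permutation p = 0.1, the smallest reachable, adjusted p = 0.15).

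hsa-miR-195-5p and hsa-miR-497-5p, encoded together on chromosome 17, were at the limit. miR-195-5p gave 208, 237 and 224 on the cisplatin arrays, 0 of 3 above the limit, and 235, 243 and 216 on the control arrays, 2 of 3 above it. It was thus not well above background on the cisplatin arrays. miR-497-5p gave 175, 188 and 231 on the cisplatin arrays and 222, 215 and 227 on the control arrays, with 1 of 3 above the limit in each group. Neither was tested, and a fold between such signals is not given. The groups overlapped for both.

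**Figure D2:**
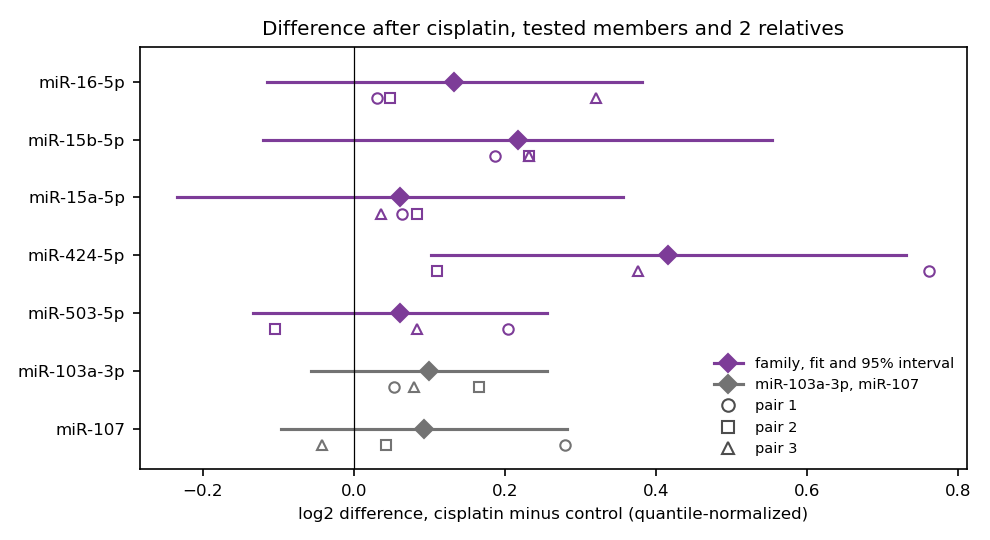
Log2 difference of quantile-normalized level, cisplatin minus control, for the 5 tested members (purple) and for miR-103a-3p and miR-107 (grey), with filled diamonds for the limma estimate, bars for its 95% interval and open symbols for the 3 same-numbered pairs. Only the interval of miR-424-5p (0.10 to 0.73) leaves out 0, and its pairs range from 0.11 to 0.76.

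Of the 5 tested members 5 had a positive normalized log2 difference, with a median of 0.13, although that of miR-503-5p was negative under spike scaling, under scaling to the 75th percentile of detected probes and with pixel means. Of all 324 tested probes 155 did (47.8%), with a median of -0.012. Levels were higher in 3 of 3 same-numbered pairs for 4 of the 5 members, all but miR-503-5p, against 19.1% of tested probes. In raw foreground the same count was also 4 of 5, against 26.2% of tested probes. Of the 5 members 1, miR-424-5p, had an unadjusted p under 0.05 on the higher side, and 8.02% of tested probes had. The same 1 member was higher with no overlap between groups in normalized levels, as were 8.64% of tested probes. With the replicate block the 1 member with an unadjusted p under 0.05 was instead miR-15b-5p, whose normalized levels were tied within each group as described above. At an adjusted p under 0.05, limma called 0 of the 5 members and 1 of the 324 probes (0.309%). The median of the 5 members was 0.22 without cisplatin replicate 1 and 0.080 without cisplatin replicate 3. The 5 members share arrays and normalization and are not replicates of the treatment.

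**Figure D3:**
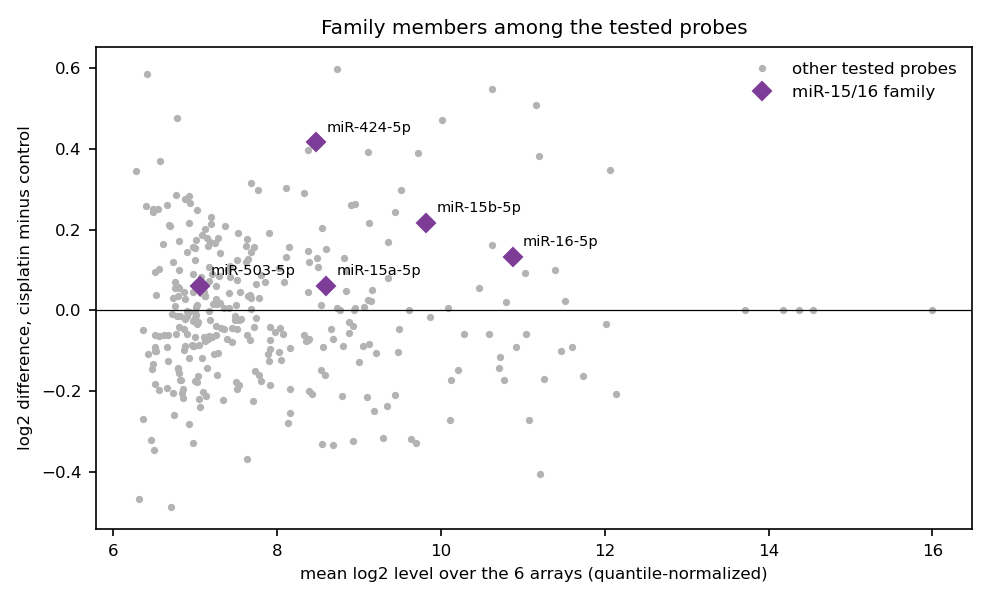
Mean log2 level over the 6 arrays (horizontal) and log2 difference, cisplatin minus control (vertical), both quantile-normalized, for the 324 tested probes in grey with the 5 tested family members as purple diamonds. The members lie between 0.061 and 0.42, inside the cloud of the other probes, with miR-424-5p near its upper edge.

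How large these differences were depended on the normalization between arrays. Without any, the log2 difference was 0.58 for miR-424-5p, 0.49 for miR-15b-5p, 0.43 for miR-16-5p, 0.23 for miR-15a-5p and 0.060 for miR-503-5p, with a median of 0.43 for the family and 0.071 for all tested probes. Median scaling gave a family median of 0.45, and cyclic loess, which like the quantile step fits the change along brightness, gave 0.19. Without normalization the median difference was larger among brighter probes. In the 81 brightest tested probes, which include miR-15b-5p and miR-16-5p, the median log2 difference was 0.18 without normalization and close to 0 after the quantile step. In the 81 dimmest it was -0.056 and -0.040. miR-16-5p, miR-15b-5p and miR-424-5p exceeded the median of all tested probes under each of the 8 normalizations plotted. No normalization, median scaling, both 75th-percentile scalings and spike scaling differ only by a constant for each array. A member's difference less the median of all tested probes is therefore the same in all of them. It was 0.51 for miR-424-5p, 0.42 for miR-15b-5p and 0.36 for miR-16-5p, so these scalings are not separate checks. miR-503-5p was negative when arrays were scaled to spike control spots (-0.12) or to the 75th percentile of probes detected on all 6 arrays (-0.098).

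Members passed the threshold in 3 of the 28 alternative fits. With slide position as a random block limma called 1 member, miR-424-5p (adjusted p = 0.0229), with a negative estimated correlation that shrinks the errors. The same fit called 47 of 324 probes in either direction. Under median scaling with the replicate number as a block, chosen after seeing the data, limma called 3 of the 5 members as higher: miR-15b-5p (0.51, adjusted p = 0.0182), miR-16-5p (0.45, adjusted p = 0.0269) and miR-424-5p (0.60, adjusted p = 0.0280). That fit called 26 of 324 probes as higher (8.02%). Without normalization and with the block, the same 3 members passed, with adjusted p of 0.0290 for miR-15b-5p, 0.0479 for miR-16-5p and 0.0489 for miR-424-5p in limma, among 20 probes called as higher (6.17%). With the block and the quantile step 0 members passed, and with neither block 0 passed under any of the 8 normalizations.

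**Figure D4:**
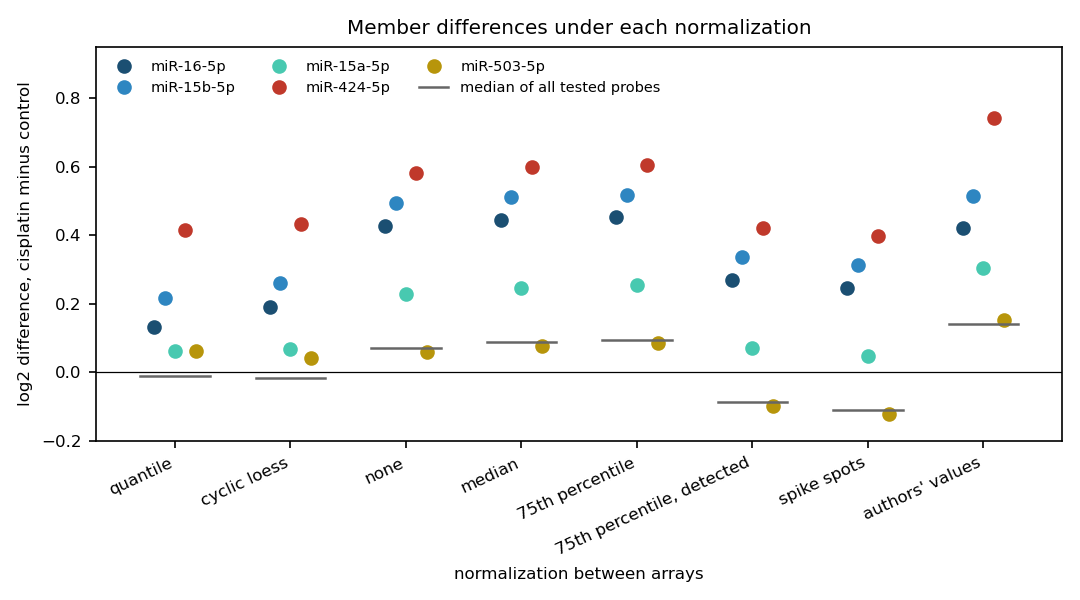
Log2 difference, cisplatin minus control (vertical), of the 5 tested members under 8 normalizations between arrays (horizontal), with a grey bar at the median of all tested probes. miR-424-5p, miR-15b-5p and miR-16-5p lie above the grey bar in every column, and miR-503-5p lies on or near it.

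Probes for relatives of the family gave small differences too. miR-103a-3p, which holds the family's seed letters at bases 1 to 7, gave 2479, 3339 and 3273 in foreground signal on the cisplatin arrays and 2074, 2886 and 2660 on the control arrays. The groups overlapped, although each cisplatin array was above its same-numbered control. Its normalized log2 difference was 0.10 ± 0.0626 (SE; 95% interval -0.057 to 0.26; limma adjusted p = 0.548). miR-107 gave 2088, 2739 and 2607 on the cisplatin arrays and 1652, 2114 and 2238 on the control arrays, with overlap, and a normalized log2 difference of 0.093 ± 0.0758 (SE; limma adjusted p = 0.667). Under median scaling with the replicate block its limma adjusted p was 0.0494. miR-103b and miR-646 were on the array and were not tested.

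The opposite strands of the family's hairpins, often the less abundant product, were near background. All 8 of them (miR-15a-3p, miR-15b-3p, miR-16-1-3p, miR-16-2-3p, miR-195-3p, miR-424-3p, miR-497-3p and miR-503-3p) were on the array, 0 were tested, and 3 were above the limit on no array. Their summed foreground signal was 1598 to 1841 on cisplatin arrays and 1725 to 1832 on control arrays. The other microRNAs of the MIR424 and MIR503 neighbourhood on the X chromosome were also dim. Of the 8 listed, 6 were on the array (both arms of miR-542, miR-450a and miR-450b), 0 were tested and 3 were above the limit on no array. Their summed foreground signal was 1142 to 1393 on cisplatin arrays and 1202 to 1368 on control arrays. Of this neighbourhood only miR-424-5p and miR-503-5p were tested, and miR-503-5p lay close to the limit. No direction is therefore given for the cluster.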

How the data were processed

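Per the file headers, the deposited scanner files hold intensity on a linear scale, as the pixel median and mean of each of 3200 spots and of its local background. The columns are headed with the wavelength of a green laser, while the labels name the dye Hy5. The sources used here do not give scanner or software. The authors' deposited value table (linear, median 31 on each array) served as an alternative only; it lists 5 members on all arrays, miR-195-5p on 5 and miR-497-5p on 3.

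Foreground and background medians were corrected by normexp (offset 50), then quantile-normalized over 2019 human probes, and log2 values were taken, with limma 3.58.1 (R 4.3.3). These values were computed here from the deposited intensities, as was each fold. The offset shrinks the folds of dim probes, and against unnormalized values the quantile step lowered the median difference of the bright ones. Probes above the blank-spot limit on all 3 arrays of at least 1 group were tested, 324 in all, of which 243 were above it on all 6. The cisplatin and control groups were set against each other by limma's lmFit and eBayes, with 4 residual degrees of freedom (1.52 prior). This main fit was unpaired, because the labels state no block, and the replicate number entered only as an alternative. P-values were adjusted by Benjamini-Hochberg over the 324. A bright probe that keeps its rank gets identical normalized values, as miR-15b-5p did for replicates 2 and 3 of each group. The number of arrays limits the precision. No member was saturated. The steps were tested on simulated data. Figures were drawn with matplotlib 3.10.9.

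Members and lists were chosen with earlier results of these data known. The text names all 7 members, the probes of their opposite arms, X-linked neighbours and seed relatives, and the 5 other probes most like the family's mean. Deviations from the group means correlated between same-numbered samples at 0.44, 0.24 and 0.20 over the tested probes. All exceed 0.1, and the numbers of the labels were used as pairs in the pair values and the replicate-block fits. However, cisplatin 2 and control 3 also correlated (0.23), more than the same-numbered pair 3 (0.20). These values therefore do not establish that same-numbered samples are pairs.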

Additional observations from a re-analysis of the deposited data

How the results depend on the processing

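The count of members called was 0 in 25 of 28 alternatives to the reported limma fit, 1 with slide position as a random block (miR-424-5p, 0.50, adjusted p = 0.0229; estimated correlation -0.62, which shrinks errors), and 3 with the replicate block under median scaling or no normalization. With 1 array left out it was 0 each time, with 1 member at an unadjusted p under 0.05. The 324 tested probes gave 1 call. That count was 3 with no background correction, 2 with median scaling, 3 with the 75th percentile, 2 with the 75th percentile of probes detected on all 6 arrays, 4 with cyclic loess, 5 at an adjusted p under 0.10, 47 with the random position block, and 27 and 20 with the replicate block under median scaling and no normalization. It was 0 (probes at an unadjusted p under 0.05 in brackets) with the trimmed blank mean subtracted (49), no normalization (33), spike scaling (13), the authors' values (25), pixel means (39), no detection filter (97), detection on all 6 arrays (39), the replicate block (57), positions 3 and 4 only (38) and trend and robust moderation (38), and 0 to 3 with 1 array left out. Signs turned for miR-503-5p (-0.098 with the 75th percentile of detected probes, -0.12 with spike scaling, -0.0057 with pixel means), miR-186-5p (-0.037 and -0.060 under that percentile and spike scaling) and miR-15a-5p (-0.029 to 0.15 with 1 array left out). The median of all tested probes was -0.088 under that percentile and -0.11 under spike scaling. Less that median, miR-503-5p was -0.011 and miR-186-5p 0.051 under both, the same as without normalization. The cause of the sign turns was not tested. Of the 28 alternatives 7 cannot move a difference. Over all 28, miR-424-5p ranged from 0.31 to 0.74, miR-15b-5p from 0.14 to 0.52 and miR-16-5p from 0.060 to 0.45. The median of all tested probes shifted to 0.14 under the authors' values and -0.11 under spike scaling. Under the authors' values the family median less that shift was 0.28. Under spike scaling it was 0.36, the same as without normalization, because spike scaling moves all probes of an array alike. With 3 arrays a group, and signals of miR-195-5p, miR-497-5p and miR-503-5p at or near the blank-spot limit, changes of these 3 were hardly measurable.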

Other observations

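The tested members varied unequally with each other over the 6 arrays. Pearson's r between normalized log2 levels was 0.88 for miR-15b-5p with miR-15a-5p, 0.86 for miR-15b-5p with miR-16-5p and 0.70 for miR-16-5p with miR-15a-5p. For miR-424-5p and miR-503-5p, the X-linked neighbours, it was 0.67, and for miR-503-5p with miR-15a-5p -0.22. These are descriptions over 6 arrays that share their treatment groups and normalization, without a test. In raw foreground, replicate 1 gave the lowest signal of its group for all 5 tested members among cisplatin arrays and likewise among control arrays.

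Among 238 probes outside the family that were above the limit on all 6 arrays, 5 followed the mean of the 5 tested members most closely. They were miR-29a-3p (r = 0.962), miR-3621 (0.954), miR-27a-3p (0.933), miR-186-5p (0.904) and miR-30b-5p (0.893), over 6 arrays that share treatment and normalization. The log2 difference, cisplatin minus control, was 0.30 ± 0.158 for miR-29a-3p, 0.12 ± 0.0667 for miR-3621, 0.60 ± 0.140 for miR-27a-3p, 0.061 ± 0.0605 for miR-186-5p and 0.24 ± 0.0594 for miR-30b-5p (SE). None of these 5 was called by limma, with adjusted p from 0.129 to 0.751.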
